A study of Mus musculus with 3 samples.

Results

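The factors described are 8 transcription factor genes of the head mesenchyme, *Alx1*, *Alx4*, *Prrx1*, *Prrx2*, *Foxc1*, *Foxc2*, *Tbx1* and *Tcf21*. They were chosen by gene symbol, as ALX, PRRX and FOXC factors and other regulators of this tissue, and all 8 are among the 24062 symbols of the counts. RNA of the rostrum, the front of the head, was sequenced from embryonic day 9 mouse embryos of 18 to 22 somites. The *tuft* embryos were homozygous for a nonsense mutation in *Tet1*, which arose spontaneously in the 3H1 colony, and had neural tube defects, whereas the wild-type embryos were of the same background strain, 3H1 Balb. *Tet1* encodes an enzyme that oxidizes methylated cytosine. RNA of 3 embryos was pooled for each library, so the values are sums over embryos.

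The head mesenchyme is the loose tissue between the neural folds and the surface ectoderm. It comes from the cranial neural crest and from the paraxial and pharyngeal mesoderm. ALX homeodomain proteins act in the frontonasal mesenchyme that forms the mid-face, and mice without *Alx1* have open cranial neural folds. PRRX homeodomain proteins act in skeletogenic mesenchyme of the face and limbs, and FOXC forkhead proteins in mesenchyme of the brain coverings, the eye, the somites and the vessels. *Tbx1*, a T-box gene, and *Tcf21*, a basic helix-loop-helix gene, mark pharyngeal mesoderm and the head muscle precursors that it gives rise to.

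There are 2 *tuft* samples and 1 wild-type sample in the records, and 1 column of counts was used for each genotype. The *tuft* column was not tied to either *tuft* sample. The counts on genes summed to 14251942 in the wild-type library and 6433067 in the *tuft* library. Values are given as counts, as counts per 1000000 counts on genes (CPM), and as the fold change of *tuft* over wild type after trimmed mean of M-values (TMM) normalization, in which the *tuft* library had a factor of 0.761 relative to wild type. CPM and sums of CPM leave out this factor, which raises *tuft* relative to wild type in the fold changes. Each fold change has a 95% Clopper-Pearson interval from its pair of counts. With 1 library for each genotype there is no replicate error and no test, and the intervals cover counting error only. A gene was called higher or lower where its whole interval lay above 2 or below 0.5. A count of 0 allows up to 3 counts, which is 0.466 CPM in *tuft* and 0.21 CPM in wild type. Among 10121 genes that reached 100 counts in wild type, 542 (5.36%) were at 0 in *tuft*. Of the 7143 that reached 100 counts in *tuft*, only 6 were at 0 in wild type. The cause of this imbalance was not tested. *Tet1* itself had 435 counts in wild type and 32 in *tuft*, a fold change of 0.214 (0.145 to 0.307). A nonsense mutation leaves the gene in place, so this count does not check the genotype of a library.

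The tissue label was compared with marker genes. Neuroepithelial genes of the forebrain were present in both libraries, with 2104 counts of *Otx2* in wild type and 990 in *tuft*, and 958 and 1361 counts of *Six3*, but *Rax*, a gene of the eye field, had 389 and 2. Of the markers of head mesenchyme, *Twist1* had 1022 and 1101 counts and *Col3a1* 3632 and 5345, whereas *Cdh11* had 1381 and 7 and *Pdgfra* 711 and 69. Of the 10 markers, 2 were called higher and 5 lower, beside 17.4% and 29.8% of all genes. Markers of the heart, which lies below the head, summed to 10.8 CPM in wild type and 0.311 CPM in *tuft*, with *Nkx2-5* at 1 count and 0 counts. Markers of the yolk sac, which is not part of the head, summed to 2234 CPM in wild type and 285 CPM in *tuft*. Of these 9 markers, 7 were called lower and 0 higher. Whether tissue from outside the rostrum was in a pool was not tested. Pools of whole tissue give the sum over cells, so fewer cells of a type and less RNA in each cell cannot be told apart.

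The 8 factors together had 3358 counts (236 CPM) in wild type and 1295 counts (201 CPM) in *tuft*. These CPM leave out the TMM factor, so they do not give the direction on the scale of the fold changes. All 8 had at least 10 counts over both libraries, the minimum for a call. *Foxc1* was called higher in *tuft*, *Prrx2* and *Tbx1* were called lower, and the other 5 were not called. Over the 13979 genes with at least 10 counts, 47.2% were called, 17.4% higher and 29.8% lower. The 3 calls among the 8 factors are 37.5%, which for so few genes is not told apart from the 47.2% of all genes. The median log2 fold change was -0.81 over the 8 factors and -0.46 over all genes tested, with counts of 0 set to 3. Library totals alone as the scale shift every log2 fold change by -0.39, and under it *Foxc1* (2.11-fold) was no longer called and *Tcf21* was called lower. Of all calls, 63.2% were lower in *tuft* with TMM and 75.3% with library totals.

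**Figure D1:**
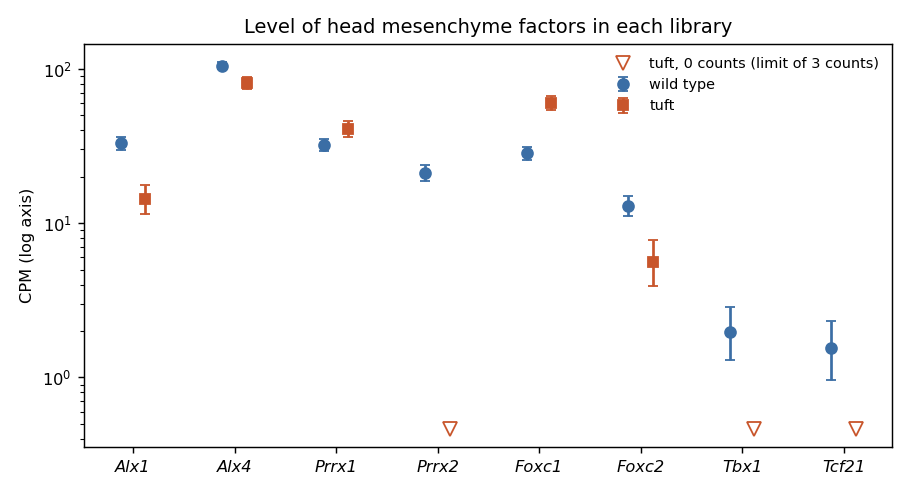
Level of each of the 8 factors in the wild-type library (circles) and the *tuft* library (squares), in CPM on a log axis, with exact 95% Poisson intervals for counting error. Open triangles mark 0 counts in *tuft* at the limit of 3 counts, 0.466 CPM. *Foxc1* lies at 28.4 CPM in wild type and 59.8 CPM in *tuft*, and *Prrx2* at 21.1 CPM in wild type with 0 counts in *tuft*.

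Levels of different genes were compared per kilobase of exon, with exon lengths of the NCBIM37 annotation, since the gene models of the counting are not given in the sources used here. In wild type, *Alx4* had the highest level, 14.8 CPM per kilobase (14.1 to 15.6), followed by *Alx1* with 11.7 (10.6 to 12.8) and *Prrx2* with 10.8 (9.64 to 12.1). The intervals of *Alx1* and *Prrx2* overlapped. *Foxc1* followed with 7.12 CPM per kilobase, *Foxc2* with 4.77 and *Prrx1* with 2.91, each with an interval apart from its neighbours. These intervals leave out error in the exon lengths, which join all annotated exons, 11069 bases for *Prrx1* and 2722 for *Foxc2*. Other gene models could change the order in either library. *Tcf21* (1.26) and *Tbx1* (1.08) were the lowest, with overlapping intervals.

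The order in the *tuft* library was another one. *Foxc1* was first with 15.0 CPM per kilobase (13.5 to 16.6), above *Alx4* with 11.4 (10.5 to 12.5). *Alx1* had 5.09 CPM per kilobase (4.10 to 6.24) and *Prrx1* had 3.69 (3.26 to 4.17), and their intervals overlapped. *Foxc2* was the lowest of the 5 factors with counts, at 2.06 CPM per kilobase. *Prrx2* was at 0, which allows up to 0.239 CPM per kilobase.

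*Alx1* spans positions 103007847 to 103029549 of chromosome 10 (GRCm38, as for all genes here). There were 468 counts in the wild-type library (32.8 CPM) and 92 in *tuft* (14.3 CPM), a fold change of 0.572 (0.453 to 0.717). The wild-type library was higher by more than counting error, but the interval reached across a fold change of 0.5, and *Alx1* was not called. At this level, 30 to 50 CPM in wild type, 36.2% of the 1782 other genes had a lower fold change. The RefSeq gene Gm34298, not among the counted symbols, overlaps *Alx1*, and whether the counting used the strand is not stated.

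*Alx4*, on chromosome 2 from 93642434 to 93681341, had the most counts of the 8 factors, 1490 in wild type (105 CPM) and 519 in *tuft* (80.7 CPM). Its fold change was 1.01 (0.916 to 1.12), and it was the only factor whose interval held 1. Its direction flips with the scale, to 0.981 with the upper quartile and 0.772 with library totals.

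Ratios between genes within a library do not depend on the scale. The ratio of *Alx1* to *Alx4* was 0.314 in wild type and 0.177 in *tuft*, a change of 0.564-fold (0.437 to 0.724). Relative to *Alx4*, then, *Alx1* was lower in *tuft* by more than counting error. The longest run of identical bases between annotated transcripts was 19 for *Alx1* and *Alx4*.

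Of the PRRX, FOXC and ALX genes among the 8 factors, the PRRX pair had the largest change in ratio. *Prrx1*, on chromosome 1 from 163245119 to 163315145, had 459 counts in wild type (32.2 CPM) and 263 in *tuft* (40.9 CPM), a fold change of 1.67 (1.43 to 1.95). It was not called. The RefSeq genes LOC108167740 and Gm20471, not among the counted symbols, overlap it. *Prrx2*, on chromosome 2 from 30845064 to 30881251, had 301 counts in wild type (21.1 CPM) and none in *tuft*. With the limit of 3 counts it was at least 34.5-fold lower in *tuft*, a bound that allows for counting error only. *Prrx2* was called lower with every scale and filter tried. Zeros at genes well counted in the other library lay mostly in *tuft*, as given above, and whether *Prrx2* shares their cause was not tested.

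In wild type there were 1.52 counts of *Prrx1* for each count of *Prrx2*, and in *tuft* at least 87.7. The longest identical run between their transcripts was 19 bases. Absence of all counts was uncommon at the level of *Prrx2*: the *tuft* library held no count for 77 of the 1292 genes between 20 and 30 CPM in wild type, *Prrx2* included, which is 5.96%. At that level 30.0% of genes were called lower and 18.2% higher.

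RefSeq promoter windows of this pair are shown because one gene of the pair had counts in *tuft* and the other had none. TET1 binds and oxidizes DNA at CG dinucleotides, and the methylation of these promoters was not measured in the data used here. The windows, of GRCm38.p6, hold 250 bases before and 50 after a start, are read 5′ to 3′ on the strand of the gene and have each CG in capitals. *Prrx1* lies on the minus strand at chr1:163313601-163313900 and *Prrx2* on the plus strand at chr2:30845117-30845416. Their starts are internal ones, 1495 bases inside *Prrx1* and 303 bases inside *Prrx2* from the 5′ end of the gene, so neither is the window at the outermost start.
Prrx1: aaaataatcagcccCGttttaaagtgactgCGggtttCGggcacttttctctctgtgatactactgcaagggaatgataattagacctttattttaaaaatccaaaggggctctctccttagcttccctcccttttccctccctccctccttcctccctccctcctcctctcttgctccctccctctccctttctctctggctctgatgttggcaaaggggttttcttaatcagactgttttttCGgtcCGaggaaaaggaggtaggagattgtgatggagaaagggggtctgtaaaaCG
Prrx2: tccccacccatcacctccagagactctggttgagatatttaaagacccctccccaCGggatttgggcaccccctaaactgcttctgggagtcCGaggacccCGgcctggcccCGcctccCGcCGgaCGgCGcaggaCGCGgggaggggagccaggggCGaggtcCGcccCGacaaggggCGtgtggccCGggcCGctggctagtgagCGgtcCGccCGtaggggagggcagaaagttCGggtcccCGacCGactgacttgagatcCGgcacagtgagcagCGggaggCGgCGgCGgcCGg

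The *Prrx2* window holds 28 CG and that of *Prrx1* holds 6, against a median of 7 over 32851 promoters of the same length. At least 28 CG were found in 14.2% of all promoters. The GC box GGGCGG, read on both strands and itself containing a CG, was found in the *Prrx2* window and in 35.7% of all promoters, and not in the *Prrx1* window. The letters TATAAA, read on both strands and found in 13.6% of all promoters, were in neither.

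Each FOXC gene has 1 exon. *Foxc1*, on chromosome 13 from 31806646 to 31810635, had 405 counts in wild type (28.4 CPM) and 385 in *tuft* (59.8 CPM), nearly as many counts in the shallower library. Its fold change was 2.77 (2.40 to 3.19), the highest of the 8 factors. At 20 to 30 CPM in wild type, 13.1% of the 1291 other genes had a higher fold change than *Foxc1*.

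*Foxc2*, on chromosome 8 from 121116171 to 121118895, had 185 counts in wild type (13.0 CPM) and 36 in *tuft* (5.60 CPM). Its fold change was 0.567 (0.385 to 0.813), lower by more than counting error and not called. At this level, 10 to 20 CPM in wild type, 43.3% of the 1710 other genes had a lower fold change, so *Foxc2* lay near the middle of genes of its level.

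The ratio of *Foxc1* to *Foxc2* was 2.19 in wild type and 10.7 in *tuft*, a change of 4.89-fold (3.30 to 7.38). The 2 transcripts share a run of 53 identical bases, so a read within it could belong to either gene. The change of *Foxc2* was close to that of *Alx1*, with a ratio of *Alx1* to *Foxc2* of 2.53 in wild type and 2.56 in *tuft* and a change of 1.01-fold (0.653 to 1.59).

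The *Foxc1* promoter is shown as that of the factor called higher. It lies on the plus strand at chr13:31806396-31806695 of GRCm38.p6 and was read and marked as for the PRRX pair.
Foxc1: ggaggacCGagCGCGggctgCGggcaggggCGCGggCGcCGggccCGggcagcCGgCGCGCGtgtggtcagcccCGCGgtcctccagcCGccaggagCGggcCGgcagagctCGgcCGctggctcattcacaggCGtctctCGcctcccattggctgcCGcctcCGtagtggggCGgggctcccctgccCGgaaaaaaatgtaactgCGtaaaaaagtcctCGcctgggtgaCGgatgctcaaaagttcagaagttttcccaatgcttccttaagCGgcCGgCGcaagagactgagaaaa

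It holds 32 CG, a number reached by 9.52% of all promoters, and a GGGCGG, but no TATAAA. *Foxc1* and *Prrx2*, which were called in opposite directions, thus both have windows rich in CG. The *Foxc1* window lies at the 5′ end of the gene.

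*Tbx1* and *Tcf21* were the lowest of the 8 factors in wild type and, like *Prrx2*, were at 0 in *tuft*. *Tbx1*, on chromosome 16 from 18580979 to 18590671, had 28 counts in wild type (1.96 CPM, 1.31 to 2.84) and 0 in *tuft*. With the limit of 3 counts it was at least 3.21-fold lower. *Tcf21*, on chromosome 10 from 22817263 to 22820143, had 22 counts in wild type (1.54 CPM, 0.967 to 2.34) and 0 in *tuft*, at least 2.52-fold lower by the same limit. The 95% interval is wider, since it is two-sided and also holds the counting error of the wild-type count. It reached 0.410 for *Tbx1* and 0.532 for *Tcf21*, so that *Tbx1* was called lower and *Tcf21* was not.

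A count of 0 was common at this level. Between 1 and 2 CPM in wild type there were 1018 genes, *Tbx1* and *Tcf21* among them, and 692 (68.0%) lacked any *tuft* count. The *Tcf21* promoter, on the minus strand at chr10:22820094-22820393, holds 8 CG and neither GGGCGG nor TATAAA. *Tbx1* has windows at 2 starts, with 26 and 16 CG. The RefSeq genes Gm10824 and Gm35369, not among the counted symbols, overlap *Tcf21* and *Tbx1*. Promoter windows of 5 of the 8 factors were matched, and those of *Alx1*, *Alx4* and *Foxc2* were not used here.

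**Figure D2:**
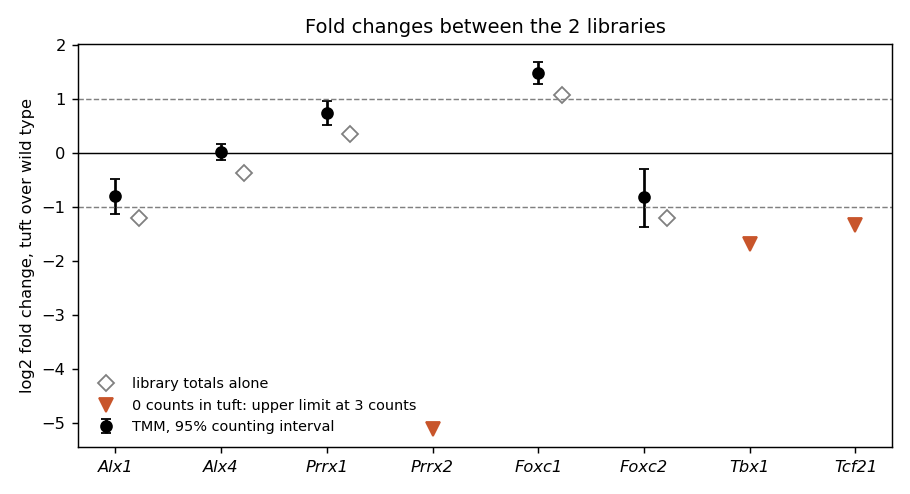
Log2 fold change of *tuft* over wild type for each factor, with TMM and its 95% counting interval (circles) and with library totals alone (diamonds). Triangles are upper limits from 0 counts in *tuft* with TMM, and the dashed lines mark 2-fold. *Foxc1* lies above the upper line at 1.47 and *Prrx2* below -5, while *Alx4* lies at 0.02 with TMM and below 0 with library totals.

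**Figure D3:**
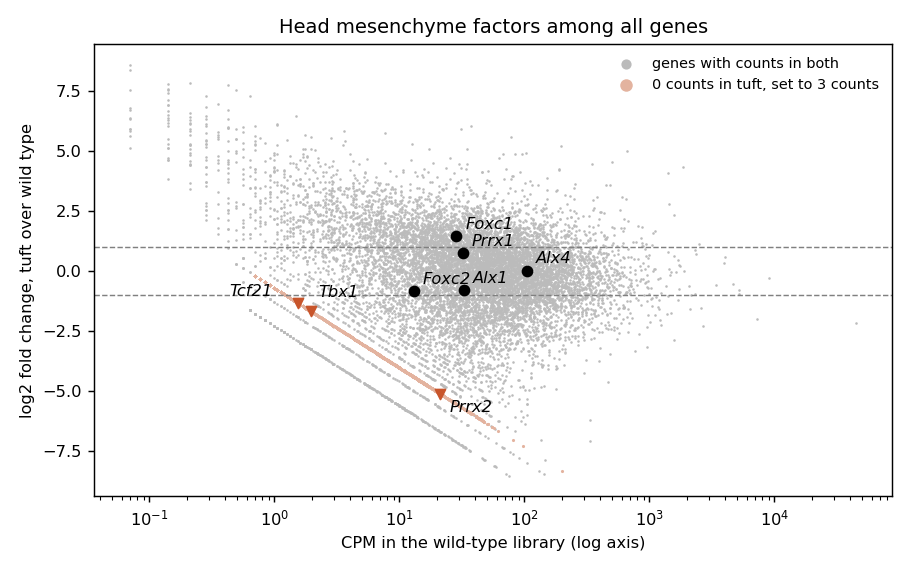
Log2 fold change of *tuft* over wild type against CPM in the wild-type library (log axis) for genes with at least 10 counts over both libraries and a count in wild type. Genes at 0 in *tuft* are drawn at 3 counts and form the coloured diagonal, on which *Prrx2*, *Tbx1* and *Tcf21* lie (triangles). The other 5 factors (black circles) lie within the cloud of genes of their level.

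The share of each factor in the summed counts of the 8 shows the same differences without a scale. *Foxc1* made up 12.1% (11.0 to 13.2, Clopper-Pearson) of these counts in wild type and 29.7% (27.3 to 32.3) in *tuft*. *Prrx1* made up 13.7% and 20.3%. The share of *Alx1* was 13.9% in wild type and 7.10% in *tuft*, and that of *Foxc2* was 5.51% and 2.78%. *Prrx2* made up 8.96% in wild type, and its 0 of 1295 counts in *tuft* allow a share of up to 0.284%. *Alx4* had the largest share in both libraries, 44.4% and 40.1%.

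**Figure D4:**
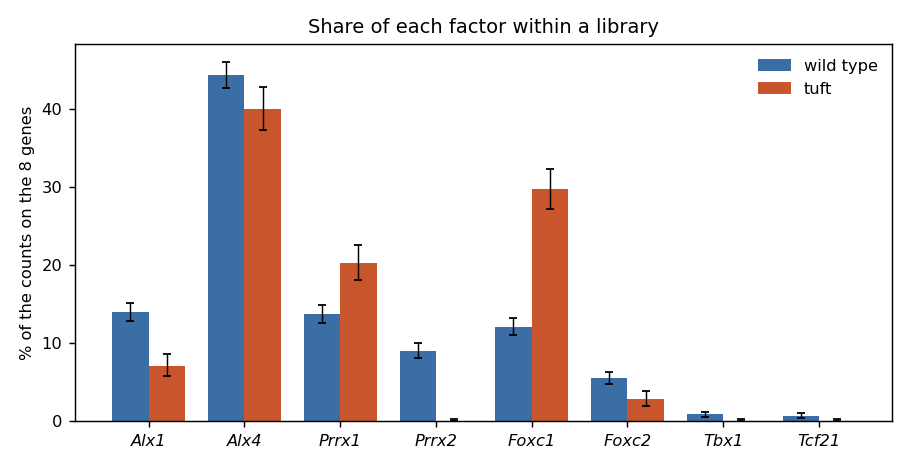
Share of each factor in the counts on the 8 factors, in percent, in the wild-type and the *tuft* library. Error bars are 95% Clopper-Pearson intervals for counting error. The share of *Foxc1* is 12.1% in wild type and 29.7% in *tuft*, and *Prrx2*, *Tbx1* and *Tcf21* have no bar in *tuft*.

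Another 64 genes of the head mesenchyme and its signals were grouped by role. Of these, 54 had enough counts, 15 were called higher in *tuft* and 15 lower, beside 17.4% and 29.8% of all genes, and 13 of the 54 were at 0 in *tuft*. Their median log2 fold change was -0.31. For each factor with counts in both libraries, the 2 genes of this list closest in log2 fold change were sought among the 37 with at least 10 counts in both libraries. *Msx1* (-0.91) and *Ets1* (-0.65) were closest to both *Alx1* and *Foxc2*. *Tfap2a* (0.75) and *Jag1* (0.66) were closest to *Prrx1*, and *Foxf2* (1.52) and *Sp8* (1.40) to *Foxc1*. Of the genes closest to *Alx4*, *Lhx2*, which is also among the neuroepithelial markers, had a value of 0.07. With 2 libraries this likeness rests on a single difference for each gene.

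Frontonasal factors were called in both directions, 4 higher and 2 lower of 14, beside 17.4% and 29.8% of all genes. *Pitx1*, a homeobox gene of the oral region, had 384 counts in wild type and 424 in *tuft*, a fold change of 3.22 (2.79 to 3.70). *Pax3*, a regulator of neural crest and dorsal neural tube, had 295 and 31 counts and was lower, with a fold change of 0.306 (0.204 to 0.444). *Sp8*, which acts in the surface ectoderm and neural folds of the face, was higher (2.64-fold). *Lhx8* and *Barx1* were called higher from 5 and 6 counts in wild type and 39 and 27 in *tuft*.

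Of 13 general mesenchyme factors, 4 were called higher and 3 lower, beside 17.4% and 29.8% of all genes. *Twist1*, a basic helix-loop-helix factor of cranial mesenchyme, had a fold change of 3.14 (2.88 to 3.42). *Foxd1* (2.42-fold), *Foxf2* (2.87-fold) and *Osr2* (11.4-fold, from 10 counts in wild type) were the other genes called higher. *Snai1*, a repressor of epithelial genes in migrating mesenchyme, had 467 counts in wild type and 41 in *tuft*, a fold change of 0.256 (0.181 to 0.352). *Snai2* had 36 counts in wild type and 0 in *tuft*, and the forkhead gene *Foxl1* had 35 and 0. Between 2 and 5 CPM in wild type, where both lie, 49.6% of genes were at 0 in *tuft*.

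The factors of head and pharyngeal mesoderm, the group closest in role to *Tbx1* and *Tcf21*, had a median log2 fold change of -2.14, against -0.46 over all genes tested. Of 9 genes, 5 were called lower and 2 higher, beside 29.8% and 17.4% of all genes. *Tbx2* had 306 counts in wild type and 1 in *tuft*, a fold change of 0.00952 (0.00024 to 0.0534). *Tbx3* had 359 and 28 counts and a fold change of 0.227 (0.149 to 0.334). *Hand1* had 118 counts in wild type and *Hand2* had 59, and both were at 0 in *tuft*. At their levels, 5 to 10 and 2 to 5 CPM in wild type, 29.1% and 49.6% of genes were at 0 in *tuft*. *Eya1*, a transcriptional coactivator, was lower with 428 and 10 counts. *Mef2c*, a factor of muscle and vessel precursors, was called higher (3.70-fold).

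The list of 18 genes upstream or downstream of the 8 factors holds signals, receptors, enzymes and other genes. Of these, 5 were called higher and 5 lower, beside 17.4% and 29.8% of all genes. *Pdgfra*, the receptor that marks cranial mesenchyme, had 711 counts in wild type and 69 in *tuft*, a fold change of 0.283 (0.217 to 0.362). Its relative *Pdgfrb* had 1051 and 763 counts and a fold change of 2.11 (1.92 to 2.32), and was not called. The ligand genes *Shh* (5.52-fold), *Bmp4* (3.70-fold), *Fgf8* (3.33-fold) and *Cxcl12* (6.03-fold) were called higher. Of the genes of retinoic acid turnover, *Aldh1a2*, which makes retinoic acid, had 61 counts in wild type and 0 in *tuft*. *Cyp26a1* and *Cyp26b1*, which break it down, had 72 and 73 counts in wild type and were also at 0 in *tuft*. *Cyp26c1*, of the same family, was higher, with 13 counts in wild type and 51 in *tuft*. *Fgf10*, a ligand gene made in pharyngeal mesoderm, had 40 counts in wild type and 0 in *tuft*. Counts of 0 were common at these levels. Between 2 and 5 CPM in wild type, the level of *Fgf10* and *Aldh1a2*, 49.6% of genes were at 0 in *tuft*. Between 5 and 10 CPM, the level of *Cyp26a1* and *Cyp26b1*, 29.1% were.

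**Figure D5:**
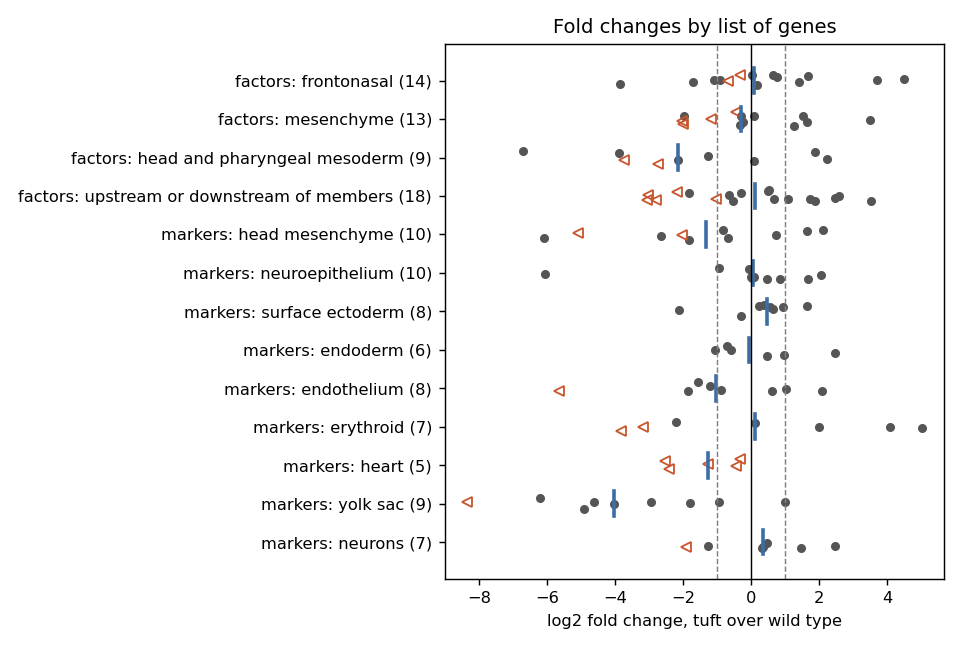
Log2 fold change of *tuft* over wild type (TMM) for each gene with at least 10 counts, by list, with the number of genes in brackets. Filled points have counts in *tuft*, open triangles are upper limits from 0 counts in *tuft*, blue lines are medians and dashed lines mark 2-fold. The head and pharyngeal mesoderm factors have a median of -2.14 and the yolk sac markers of -4.03, while the neuroepithelial markers have one of 0.04.

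Markers of cell types, also of tissues outside the rostrum such as yolk sac and heart, give the setting of these differences. The 10 markers of head mesenchyme, which include *Prrx1* and *Prrx2*, had 2 genes called higher and 5 lower, beside 17.4% and 29.8% of all genes. Their median log2 fold change was -1.32, against -0.46 over all genes tested. The 10 markers summed to 1097 CPM in wild type and 1288 CPM in *tuft*, of which *Col3a1* (4.29-fold higher) made up 255 and 831 CPM. *Cdh11*, a cadherin of mesenchyme, and *Col1a1*, with 1193 counts in wild type and 65 in *tuft*, were among the genes called lower.

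Other cell types differed too, and their part in the values of the 8 factors was not tested. Beside the calls in each list below, 17.4% of all genes were called higher and 29.8% lower. Sums of CPM are given without the TMM factor. The endothelial list summed to 352 CPM in wild type and 183 CPM in *tuft*, with 3 of 8 genes called lower and 1 higher, and *Pecam1* had 443 counts and 0. The yolk sac list summed to 2234 CPM and 285 CPM, with 7 of 9 genes called lower and none higher. The erythroid list summed to 3206 CPM and 35525 CPM, with 3 of 7 called in each direction. *Hba-x* and *Hbb-y* made up 18461 and 16155 CPM of the *tuft* sum. For the neuroepithelial list the sums were 1147 and 1212 CPM, with 2 genes of 10 higher and 1 lower, and for the surface ectoderm list 767 and 965 CPM, with 1 of 8 in each direction. The endoderm list summed to 98.7 and 138 CPM, with 1 of 6 higher, and the neuron list to 111 and 113 CPM, with 1 of 7 in each direction. Of the heart list, 5 genes had enough counts, *Myh7* and *Tnni1* were called lower, and all 5 were at 0 in *tuft*. All 5 lay below 5 CPM in wild type, where counts of 0 in *tuft* were common. *Hand1* and *Hand2* are also expressed in the heart and its surroundings.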

How the data were processed

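The authors deposited raw counts per gene symbol. They sequenced poly-A RNA as single-end Ion Proton reads, aligned them to mm10 with TopHat2 2.0.14 and Bowtie2 2.2.5 and counted them with HTSeq, whose version, strand setting and gene models are not given in the sources used here. Of all entries, 51.4% in wild type and 59.2% in *tuft* were alignments that were not unique. The 5 summary lines of each column were left out of totals.

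The study's own caller, NOISeq-sim, takes its noise from simulated libraries and was not used here. TMM factors came from edgeR 4.0.16 in R 4.3.3, and intervals, calls and lists from Python 3.11.15 with scipy 1.17.1. The code was checked on simulated counts with counting error only and changes in few genes. That setting differs from these data, where 47.2% of genes were called, so it does not check the scale or the calls here. Neither edgeR nor DESeq2 can estimate spread from 1 library per genotype, so no p-value is given. Genes needed at least 10 counts over both libraries and were called where the 95% interval lay wholly past 2-fold. Named genes are the 8 factors, *Tet1*, genes of the role lists that were called, at 0 in a library or paralogs of a factor, the 2 closest genes per factor, and markers. The factors and lists were chosen with earlier results of these data known. Some genes of these lists enter the counts but are not reported here by name. Positions and promoters are from RefSeq of GRCm38.p6. Alternatives were other scales, filters and thresholds, 0.5 counts added to each library and the predictive fold change of edgeR at an assumed dispersion of 0.1.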

Additional observations from a re-analysis of the deposited data

How the results depend on the processing

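Counts of 8 factors called, 1 higher and 2 lower, were the same with the upper quartile, with DESeq2's size factors, with TMM after leaving out the 10 most counted genes, without a filter and with a minimum of 1 CPM. With library totals alone, 0 factors were called higher and 3 lower, and the fold changes moved to 0.436 for *Alx1*, 0.772 for *Alx4*, 1.27 for *Prrx1* and 2.11 for *Foxc1*, since that scale multiplies all of them alike. At a threshold of 4-fold, 970 genes were called higher and 2218 lower, and 0 factors were higher and 1, *Prrx2*, lower. With the fold change itself past 2-fold, or an interval past 1.5-fold, *Tcf21* was called lower beside *Prrx2* and *Tbx1*. Adding 0.5 counts, or the predictive fold change of edgeR, left the values of the 5 factors with counts in both libraries within their intervals. No paired analysis was possible because there is 1 column per genotype, and for the same reason no replicate could be left out. Between 1 and 2 CPM in wild type, 68.0% of genes were at 0 in *tuft*, where 3 counts are 0.466 CPM. The ratio of the library totals, wild type over *tuft*, was 2.22. Zeros this common limit what can be said of *Tbx1* and *Tcf21*, and their cause was not tested.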

Other observations

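The families of the FOXC factors and *Tbx1* were looked at as a whole, by symbol, after the values of the factors had been seen. Of 44 Fox genes in the table, 36 had at least 10 counts over both libraries, and 8 were called higher in *tuft* and 8 lower, beside 17.4% and 29.8% of all genes tested. Their median log2 fold change was -0.27, against -0.46 over all genes. *Foxj1*, a regulator of motile cilia, had 17 counts in wild type and 106 in *tuft*, a fold change of 18.2 (10.8 to 32.3), and *Foxl2* had 51 and 112 counts and a fold change of 6.39 (4.55 to 9.09). *Foxd2* had 158 and 6 counts and a fold change of 0.111 (0.0400 to 0.246), while *Foxd1* was called higher.

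Of 13 Tbx genes in the table, 7 had at least 10 counts, and *Tbx1*, *Tbx2* and *Tbx3* were called lower and none higher, beside 29.8% and 17.4% of all genes. Their median log2 fold change was -1.68. The other 4 were *Tbx18* with 20 counts in wild type, *Tbx5* with 22 and *Tbx6* with 13, all at 0 in *tuft*, and *Tbx20* with 32 counts in wild type and 1 in *tuft*. These genes are few and most have low counts, at which many genes of any kind were at 0 in *tuft*.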
